A study of Arabidopsis thaliana with 12 samples.

Results

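The transcripts described here belong to 4 Arabidopsis genes for enzymes of plastid amino acid synthesis. AT3G53580 encodes the diaminopimelate epimerase of the lysine pathway. AT-HF (locus AT4G26900, also HISN4) encodes the bifunctional glutamine amidotransferase and cyclase of the histidine pathway. AT3G58610 encodes ketol-acid reductoisomerase and AT3G23940 dihydroxyacid dehydratase, which act in succession in the synthesis of the branched-chain amino acids. They were taken by probe from an array of 3439 probes, of which 692 list a single gene. They were selected on their pathway and on their difference in intensity between pam48 and WT, which was already known, so that difference is described below, and whether a gene passed the fit over all probes is given only as a count beside the share of all probes that passed.

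The samples were total RNA of the wild type (WT) and of the pam48 mutant, both of ecotype Columbia 0, with 6 samples per genotype numbered 1 to 6. The labels describe pam48 as having altered photosynthesis through a defect in a protein that they leave unnamed, so the transcript of the mutated gene could not be used to check them. They name no tissue, age, growth condition or allele, and do not tie the numbered samples to plants. In such bulk RNA, fewer cells of a type and less RNA per cell cannot be told apart.

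Plants make lysine, histidine and the branched-chain amino acids themselves, largely inside plastids, with enzymes that are encoded in the nucleus and imported. The lysine pathway starts from aspartate and passes through diaminopimelate, whose epimerase delivers the form that the last enzyme decarboxylates. The histidine pathway starts from phosphoribosyl pyrophosphate and ATP, and the AT-HF enzyme closes the imidazole ring. In branched-chain synthesis a single set of enzymes makes both valine and isoleucine: the reductoisomerase reduces and rearranges the acetohydroxy acid with NADPH, and the dehydratase, an iron-sulphur protein, removes water from its product.

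Intensities are on the deposited scale, on which the brightest spots of each sample stand at 100. The median intensity of a sample over all probes lay between 0.0913 and 0.192 in WT and between 0.233 and 0.305 in pam48, so deposited intensities of the genotypes are not on a common level. Values were therefore quantile normalised between samples and set on a log2 scale, with a lower limit (the floor) at each sample's 5th percentile of positive values. None of the 4 genes was at the floor in any of the 12 samples. In percentiles of brightness within a sample, AT3G23940 lay highest in WT, at 73.2 ± 7.68 (SD, n = 6), and the other 3 had means between 52.5 and 61.0, with ranges over samples that overlapped with each other and with that of AT3G23940. In pam48 AT-HF lay at 87.4 ± 3.89, AT3G23940 at 79.5 ± 1.67, AT3G58610 at 37.6 ± 9.80 and AT3G53580 at 15.0 ± 5.17 (SD, n = 6). Percentiles place a probe among the spots of its own sample, and do not compare amounts of different transcripts.

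The genes did not move in a common direction. The lysine gene and the first of the branched-chain genes were lower in pam48, the histidine gene was higher, and the second branched-chain gene was close to its WT level on the normalised scale. Of the 4, 3 passed limma's test over all probes (Benjamini-Hochberg adjusted, threshold 0.05), AT3G53580 and AT3G58610 as lower and AT-HF as higher. Of all 3439 probes 16.9% passed, 411 as lower and 169 as higher, and 42 of the lower ones were at the floor in all 12 samples, where only the floors differ. Since this contrast served to pick the genes, nothing is read from their count. With consecutive sample numbers taken as correlated (a random block), 0 of the 4 passed, beside 0.233% of all probes. With consecutive numbers averaged 0 passed, beside 0 of all probes, of which 386 had an unadjusted p under 0.05 in limma. The SEs given below treat the 12 samples as independent. In the random block, with a correlation of 0.811, the SE was 0.61 for AT3G53580 and 0.54 for AT-HF. It was 0.57 for AT3G58610 and 0.30 for AT3G23940, so the SEs below overstate the precision if consecutive samples are not independent.

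AT3G53580, the epimerase of lysine synthesis, had deposited intensities in WT samples 1 to 6 of 0.131, 0.139, 0.147, 0.168, 0.099 and 0.162. In pam48 samples 1 to 6 they were 0.0653, 0.0635, 0.056, 0.0522, 0.0982 and 0.0446. The genotypes did not overlap, but WT sample 5 and pam48 sample 5 nearly met. On the normalised log2 scale WT ran from -3.31 to -1.76 and pam48 from -5.93 to -3.69, again without overlap, with WT 5 and 6 the lowest of WT and pam48 3 and 4 the lowest of pam48. Over all probes, 6.57% did not overlap on the normalised scale and 14.2% on the deposited scale. The mean was -2.27 ± 0.593 (SD, n = 6) in WT and -4.77 ± 0.866 (SD, n = 6) in pam48, a log2 change of -2.50 ± 0.40 (SE), or 5.67-fold lower. Only 4 of the 3439 probes had a more negative change. On the deposited values the log2 change was -1.18 ± 0.24 (SE), or 2.27-fold lower, where the median probe was higher by 1.06. Relative to the median probe it was -2.37 on the normalised and -2.24 on the deposited scale. The normalised levels in pam48 3, 4 and 6 lay just above those samples' floors of -6.07, -6.13 and -4.97. With the highest floor, -4.43, used for all samples the change was -1.995.

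AT-HF, the amidotransferase and cyclase of histidine synthesis, had deposited intensities in WT samples 1 to 6 of 0.156, 0.0717, 0.089, 0.0924, 0.526 and 0.592. In pam48 samples 1 to 6 they were 0.948, 0.742, 1.23, 1.20, 1.19 and 1.30. WT split into samples 1 to 4, which were dim, and samples 5 and 6, which were several times brighter and closer to pam48 than to the other WT samples on the log2 scale. The deposited intensities of the genotypes did not overlap, with pam48 higher, as in 12.6% of all probes on that scale, where the median probe was higher by 1.06. On the normalised log2 scale WT ran from -2.75 to -0.66 and pam48 from -0.74 to 0.47, and they overlapped where WT 6 passed pam48 2. The mean was -1.80 ± 0.877 (SD, n = 6) in WT and -0.081 ± 0.451 (SD, n = 6) in pam48, a log2 change of 1.72 ± 0.38 (SE), or 3.29-fold higher. Of all probes, 41 had a larger positive change. On the deposited values the log2 change was 2.63 ± 0.52 (SE), or 6.19-fold higher, and relative to the median probe it was 1.85 on the normalised and 1.57 on the deposited scale.

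AT3G58610, the reductoisomerase step of branched-chain synthesis, had deposited intensities in WT samples 1 to 6 of 0.199, 0.190, 0.246, 0.155, 0.183 and 0.187. In pam48 samples 1 to 6 they were 0.165, 0.187, 0.220, 0.157, 0.265 and 0.123. These ranges overlapped almost wholly, and the log2 change on the deposited values was -0.085 ± 0.23 (SE). The median probe was higher by 1.06 on that scale, and relative to it the change was -1.14, against -0.93 relative to the median probe on the normalised scale. On the normalised log2 scale WT ran from -2.43 to -1.36 and pam48 from -3.44 to -2.24. The overlap was made by WT 5 and 6, the lowest of WT, and by pam48 5, the highest of pam48. The mean was -1.87 ± 0.458 (SD, n = 6) in WT and -2.93 ± 0.460 (SD, n = 6) in pam48, a log2 change of -1.06 ± 0.28 (SE), or 2.09-fold lower. AT3G58610 was no longer among the called probes when any 1 of the 8 samples numbered 1 to 4 was left out, with changes between -1.11 and -0.94 there.

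AT3G23940, the dehydratase of the following step, had deposited intensities in WT samples 1 to 6 of 0.362, 0.373, 0.154, 0.178, 0.424 and 0.451. In pam48 samples 1 to 6 they were 0.661, 0.703, 0.697, 0.823, 0.632 and 0.593. All pam48 samples lay above all WT samples, as did 12.6% of all probes on that scale, and WT 3 and 4 were the dimmest. The log2 change on the deposited values was 1.19 ± 0.30 (SE), against 1.06 for the median probe. Normalised, WT ran from -1.84 to -0.81 and pam48 from -1.06 to -0.70. The genotypes overlapped, and WT 1 and 2 stood at the level of pam48. The mean was -1.23 ± 0.441 (SD, n = 6) in WT and -0.85 ± 0.119 (SD, n = 6) in pam48, a log2 change of 0.38 ± 0.23 (SE). AT3G23940 varied least among pam48 samples of the 4 genes.

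**Figure D1:**
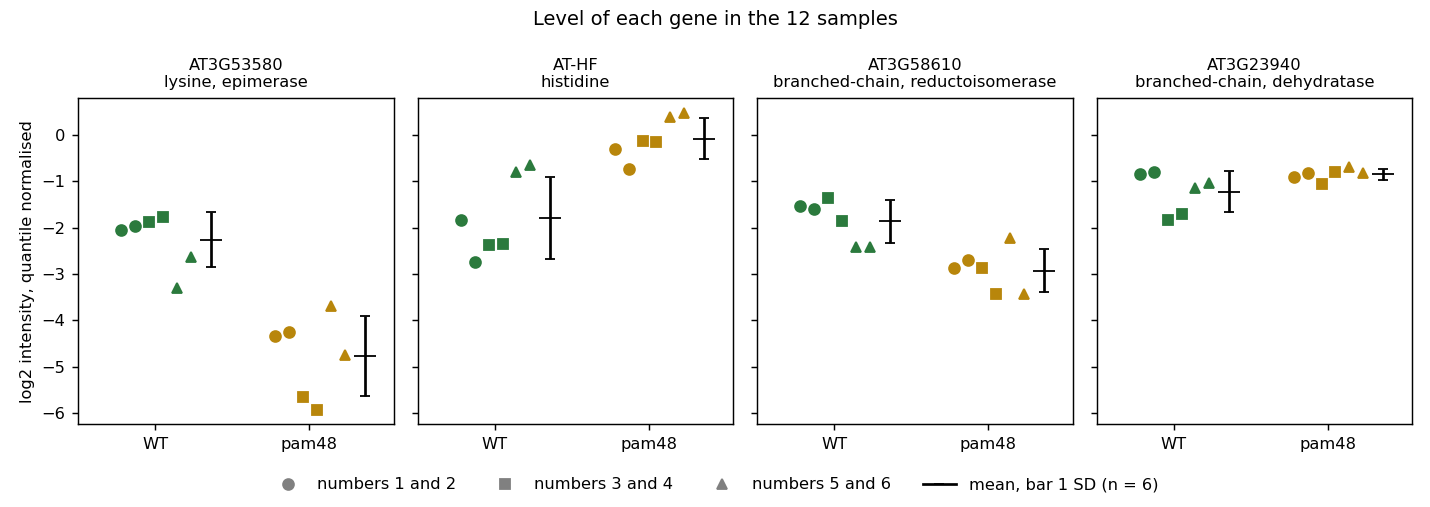
Quantile normalised log2 intensity (vertical axis) of the 4 genes in each WT (green) and pam48 (ochre) sample, with markers for the sample numbers and the mean with 1 SD (n = 6) at the right of each group. AT3G53580 lies at -3.31 or above in WT and at -3.69 or below in pam48, whereas the ranges of AT-HF, AT3G58610 and AT3G23940 overlap.

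How far the direction of each gene hangs on the scaling can be read from the changes under several scalings. AT3G53580 was lower and AT-HF higher under quantile normalisation, cyclic loess, median centring and on the deposited values. The change of AT3G53580 was -2.42 with cyclic loess and -2.29 with median centring, and that of AT-HF 1.90 and 1.53. AT3G58610 gave -1.17 and -1.19 under the same 2 scalings. AT3G23940 gave 0.47 with cyclic loess and 0.087 with median centring, so that on the last scale it was nearly level. The order of the 4 changes, from AT3G53580 through AT3G58610 and AT3G23940 to AT-HF, was the same under these 4 scalings. On the deposited values the called genes were AT3G53580, AT-HF and AT3G23940, beside 50.6% of all probes, and AT3G58610 was not called.

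**Figure D2:**
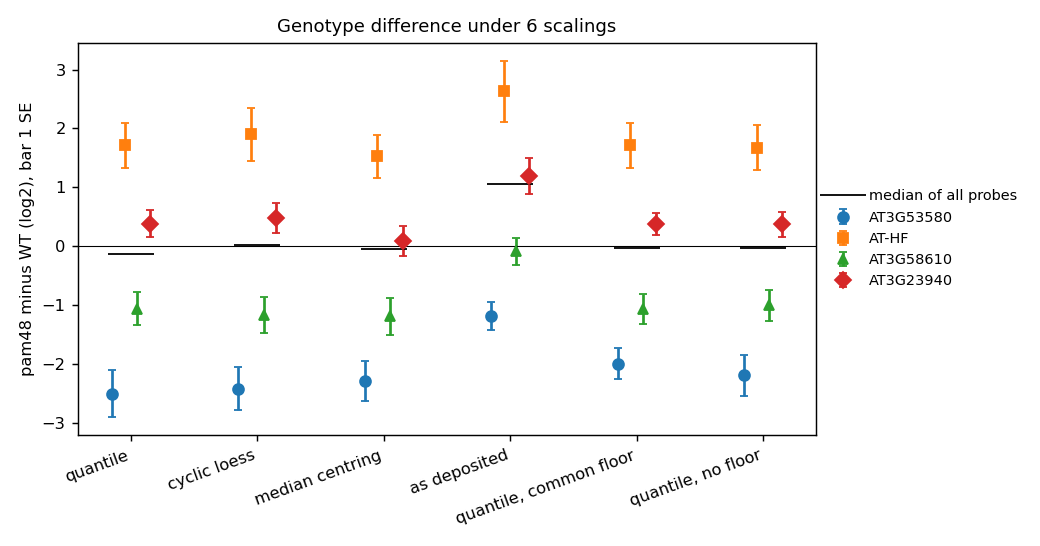
Difference between pam48 and WT (log2, vertical axis, bars 1 SE) for the 4 genes under 6 scalings, with the median of all probes as a black line. On the deposited values the median probe stands at 1.06, and AT3G23940 (1.19) lies beside it while AT3G58610 (-0.085) lies below it.

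A ratio of 2 probes within a sample is not moved by any factor that multiplies all intensities of that sample, so ratios were taken between the genes from the deposited values, as an alternative added after the values were seen. Such a ratio shows that 2 transcripts changed unequally and not which of them changed. Between the successive branched-chain steps, the ratio of AT3G58610 over AT3G23940 in WT samples 1 to 6 was 0.550, 0.510, 1.60, 0.867, 0.431 and 0.415. In pam48 samples 1 to 6 it was 0.250, 0.266, 0.316, 0.190, 0.419 and 0.207. The ratio was lower in pam48 for each of the 6 numbers, by 2.42-fold in the geometric mean (log2 -1.28, SD over numbers 0.860, n = 6). Consecutive numbers resembled each other over all probes, and what a number marks is not labelled. The 6 numbers, here and for the ratios below, are therefore not to be counted as 6 independent comparisons. The genotypes overlapped through pam48 5, which lay at the level of WT 5 and 6, and for number 5 the log2 difference was only -0.043.

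Between the lysine and histidine genes the contrast was wider. The ratio of AT3G53580 over AT-HF in WT samples 1 to 6 was 0.842, 1.94, 1.65, 1.81, 0.188 and 0.274. In pam48 samples 1 to 6 it was 0.0689, 0.0856, 0.0455, 0.0437, 0.0824 and 0.0343. All pam48 samples lay below all WT samples, and WT 5 and 6 stood between the other WT samples and pam48. The geometric mean of the ratio was 14.04-fold lower in pam48 (log2 -3.81, SD over numbers 1.57, n = 6), with log2 differences from -5.38 to -1.19 over the 6 numbers. These genes were picked with their opposite directions known, and that choice fixes the direction of the ratio.

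The lysine gene also changed more than the first branched-chain gene. The log2 ratio of AT3G53580 over AT3G58610 was -0.46 ± 0.368 (SD, n = 6) in WT and -1.56 ± 0.223 (SD, n = 6) in pam48, without overlap, and the difference of -1.10 was negative for each number. Of the 6 pairs of genes this ratio had the smallest spread over numbers, with an SD of 0.411. AT-HF over AT3G23940 was higher in pam48 for each number, with a log2 difference of 1.44 (SD over numbers 0.684, n = 6), though WT 5 and 6 overlapped with pam48. The log2 difference was -2.37 for AT3G53580 over AT3G23940 and 2.72 for AT-HF over AT3G58610, and neither ratio overlapped between the genotypes. The genes of all 6 pairs were selected on their difference between the genotypes. How many pairs of probes on the array do not overlap was not computed, so nothing is read from the absence of overlap.

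**Figure D3:**
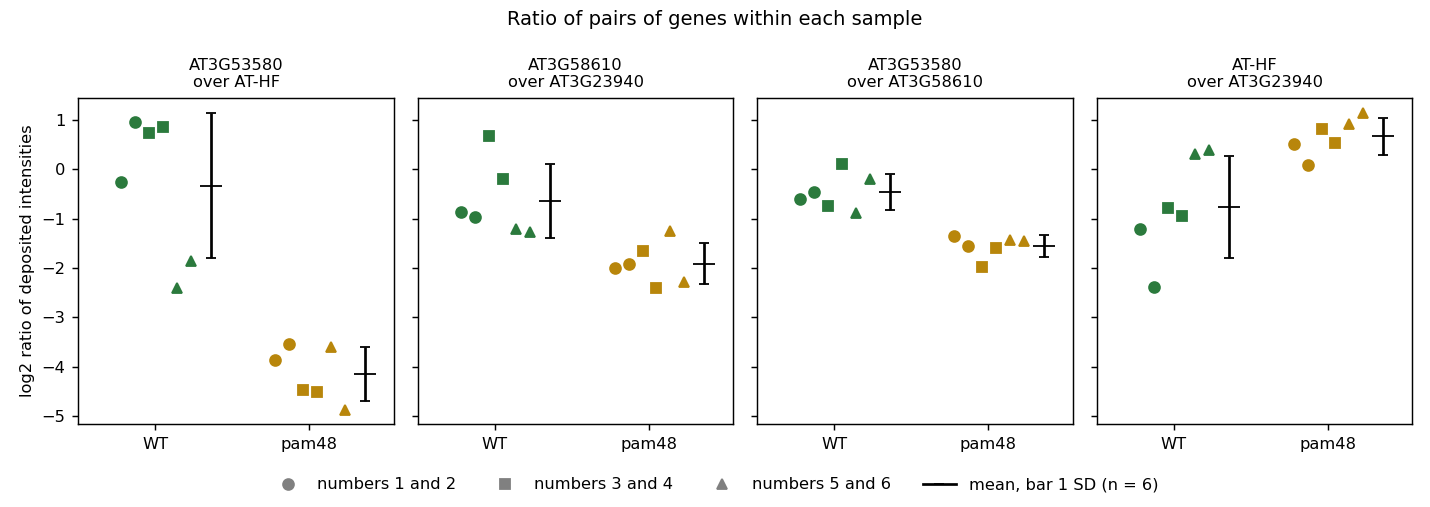
Log2 ratio of deposited intensities (vertical axis) for 4 pairs of genes in each WT and pam48 sample, with markers for the sample numbers and the mean with 1 SD (n = 6). The lysine over histidine ratio is lower in all pam48 samples (at most -3.55) than in all WT samples (at least -2.41), and the ratio of the branched-chain steps overlaps through pam48 5.

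The changes were uneven over the sample numbers. Over all probes, consecutive numbers (1 with 2, 3 with 4, 5 with 6) resembled each other. What a number marks is not in the labels. The log2 change of AT3G53580 was -2.29 in numbers 1 and 2, -3.97 in 3 and 4 and -1.25 in 5 and 6. AT-HF gave 1.76, 2.23 and 1.16 in the same order, and AT3G58610 gave -1.21, -1.55 and -0.42. AT3G23940 gave -0.036, 0.84 and 0.34. By single numbers, AT3G53580 was lower and AT-HF higher in pam48 for all 6. AT3G58610 was lower for 5 and higher for 1, and AT3G23940 was lower for 2 and higher for 4. The means of 5 and 6 hide unlike numbers in 2 of the genes. AT3G58610 changed by 0.19 for number 5 and -1.03 for number 6, and AT3G53580 by -0.38 and -2.12. For all 4 genes the change in 3 and 4 was the most extreme. The middle 90% of all probes was also widest there, from -2.21 to 2.04, against -1.08 to 1.03 in 5 and 6. The changes of AT3G53580 lay below the 5th percentile of all probes in each couple of numbers and those of AT-HF above the 95th. Those of AT3G58610 lay inside these limits in each. The couples are parts of the contrast on which the genes were selected, so these positions are no separate support.

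For AT-HF, the smaller change in numbers 5 and 6 went with a higher WT level there, -0.73 on the normalised log2 scale against -2.29 in WT 1 and 2 and -2.37 in WT 3 and 4. WT 5 and 6 were also the lowest of WT in AT3G53580 (-2.97, against -2.01 and -1.82) and in AT3G58610 (-2.42, against -1.57 and -1.61). So for these 3 genes the WT samples 5 and 6 stood nearer to pam48 than the other WT samples did. For AT3G23940 it was WT 3 and 4 that stood apart, at -1.77 against -0.82 in 1 and 2 and -1.10 in 5 and 6. The median deposited intensity over all probes also differed there, at 0.191 and 0.192 in WT 5 and 6 and between 0.0913 and 0.0999 in WT 1 to 4. Its part in these levels was not tested.

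**Figure D4:**
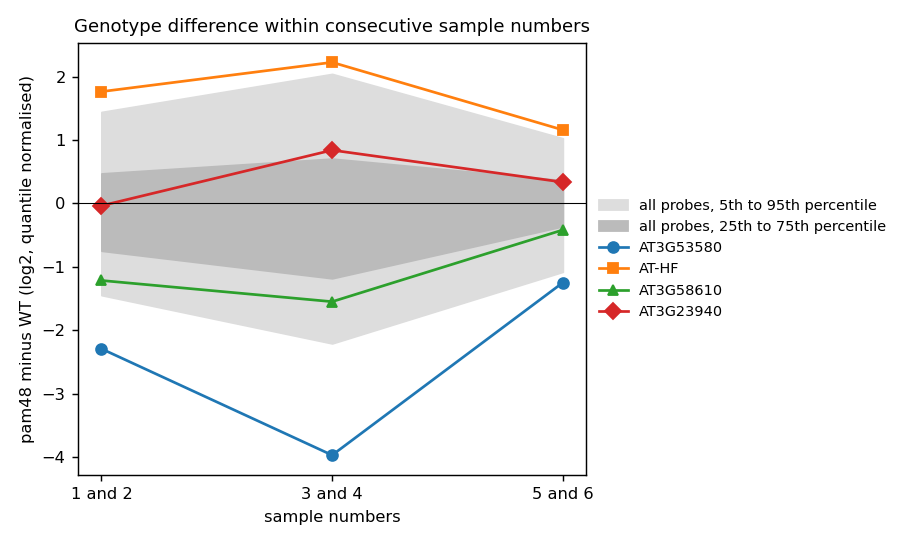
Difference between pam48 and WT (log2, quantile normalised, vertical axis) within each couple of consecutive sample numbers (horizontal axis) for the 4 genes, over bands that hold the middle 90% and the middle 50% of all probes. AT3G53580 and AT-HF lie outside the wider band in each couple, and the changes of all 4 genes are most extreme in numbers 3 and 4. The genes were selected on this difference over all samples, so their places outside the band are no separate support.

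Genotype took up 77.3% of the sum of squares of AT3G53580 over the 12 samples, 64.5% of AT-HF, 61.6% of AT3G58610 and 29.4% of AT3G23940. The couple of numbers, whatever the genotype, took up 3.70%, 27.5%, 7.42% and 40.4% in the same order. For comparison, the median over probes above the floor in 6 or more samples was 16.2% for genotype and 35.9% for couple. The 4 genes were selected on their genotype difference, so nothing is read from genotype shares above that median. AT3G58610 had the largest share between consecutive samples of the same genotype, 18.7%. That share reflects pam48 5 and 6, which differed by 1.20 on the log2 scale for AT3G58610 and by 1.06 for AT3G53580, where the median gap between consecutive samples over all probes was 0.188. In both genes pam48 5 was the brighter of the 2.

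Of the other genes of amino acid synthesis and breakdown asked about, 123 loci in 8 lists with the 4 genes included, 2 further ones had a probe of their own. AT5G10920, argininosuccinate lyase of arginine synthesis, gave -0.83 ± 0.791 (SD, n = 6) in WT and -0.15 ± 0.483 (SD, n = 6) in pam48 on the normalised log2 scale, a change of 0.68 ± 0.36 (SE; limma, adjusted p = 0.21). CBL, cystathionine beta-lyase of methionine synthesis, gave -2.05 ± 0.912 (SD, n = 6) in WT and -2.89 ± 0.655 (SD, n = 6) in pam48, a change of -0.84 ± 0.42 (SE; limma, adjusted p = 0.19). Thus 0 of the 2 passed limma's test, beside 580 of all 3439 probes, and 0 had an unadjusted p under 0.05, beside 1107 of all probes. In the paired fit, with a replicate block, both had an unadjusted p under 0.05 in limma, as did 1325 of all probes. After adjustment 0 passed there (limma, adjusted p = 0.051 for AT5G10920 and 0.13 for CBL), beside 441 of all probes. Nothing is read from these counts over 2 genes. Without WT 5, in which CBL was lowest among WT samples, CBL passed (limma, adjusted p = 0.039). On the deposited values AT5G10920 passed (log2 change 1.40, adjusted p = 0.022 in limma), where the median probe was higher by 1.06. In WT, AT5G10920 was lowest in samples 3 and 4 and highest in 5 and 6.

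A further 7 probes listed several genes that all lie in 1 of these lists, 4 in the lysine list, 2 in the histidine list and 1 in the aromatic list. They were added after the annotation was seen, and their genes are not named because a spot cannot tell them apart. In limma's test 2 of the 7 were called lower, both of the lysine list. Of all 3439 probes 16.9% passed, 411 of them as lower, so nothing is read from this count. One of them, probe 1679, had a log2 change of -0.75 ± 0.22 (SE; adjusted p = 0.040). Its call was lost in limma with the random block on consecutive numbers (adjusted p = 0.31), and when some single samples were left out (highest adjusted p = 0.080), and on the deposited values its change was -0.017. Probe 1313, which lists the same genes, gave 0.16 ± 0.20 (SE; limma, adjusted p = 0.61), so the 2 spots disagreed. The other called probe, 3354 (limma, adjusted p = 0.046), was at the floor in each sample, so that its call reflects only the lower mean floor of pam48 and measures no change. The remaining 5 did not pass. In the histidine list, probes 301 and 1473 share their genes and gave 0.33 ± 0.23 and -1.48 ± 0.53 (SE; limma, adjusted p = 0.33 and 0.072), the latter at the floor in 7 samples. Neither lay near the change of 1.72 of AT-HF.

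The genes whose levels followed each of the 4 most closely were sought among 573 single-gene probes at the floor in at most 3 samples, by Pearson's r of the normalised log2 values over the 12 samples. These points share a genotype step and resembling consecutive samples, so r is a description. AT3G53580 was most like PRK, phosphoribulokinase of the Calvin cycle (r = 0.95, n = 12), followed by AT4G31470 (r = 0.95) and AT4G30740 (r = 0.94). PRK had a log2 change of -2.40, close to the -2.50 of AT3G53580. AT-HF was most like AT2G36480 (r = 0.97), AT3G11150 (r = 0.95) and AT4G03150 (r = 0.95). AT3G58610 was most like AT2G02590 (r = 0.92), and the second was AT3G53580 itself (r = 0.91), followed by AT3G46950 (r = 0.90). AT3G23940 was most like AT3G09850 (r = 0.93), AT1G76220 (r = 0.93) and AT1G51080 (r = 0.90). The nearest genes of the reductoisomerase and of the dehydratase did not include each other.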

How the data were processed

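Per the labels, total RNA of 12 samples was measured. The deposited values are spot intensities on a linear scale from 0 to 100, one for each probe in each sample. The labelling, scanning, background correction and scaling done by the authors are steps not given in the sources used here. Depth does not apply to arrays, and the number of samples limits the precision. Genotypes came from the sample titles. Probe names came from the supplied platform annotation, updated to the TAIR10.1 gene table: 692 probes list 1 gene (690 with a locus), 870 several and 1877 none. No coordinates are printed, since the build of the probes is unknown here.

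Values were quantile normalised, raised to each sample's 5th percentile of positive values and log2 transformed. All 3439 probes were fitted in R (version 4.3.3) with lmFit and eBayes of limma (version 3.58.1), two-sided, pam48 against WT over 12 samples, without covariates. The fit was tested on simulated data with independent samples. Consecutive samples here resemble each other, so that test cannot tell how many calls in these data are false. Nothing says that the samples are separate plants, so p-values reflect only the spread of these samples, which may be technical. The 4 genes, the lists and the tests were chosen with earlier results of these data known. Genes were named by a rule: the 4 genes, list genes with a probe of their own, and the 3 probes most alike in pattern.

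Deviations from the genotype means were correlated between WT and pam48 samples that share a number (r across probes 0.188 to 0.418 for the 6 numbers), so by a fixed rule (every r over 0.1) the numbers were taken as pairing them, in an alternative fit. What a number marks is not labelled, and samples of different numbers reached an r almost as large (0.165 to 0.368). Alternatives were other scalings, floors and filters, a replicate block, consecutive numbers averaged or as a random block, and each sample left out.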

Additional observations from a re-analysis of the deposited data

How the results depend on the processing

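Leaving out each of the 12 samples in turn kept the direction of the 4 changes, which ran from -2.69 to -2.35 for AT3G53580, from 1.51 to 1.95 for AT-HF, from -1.21 to -0.94 for AT3G58610 and from 0.25 to 0.46 for AT3G23940, and from 2 to 3 of the 4 genes were called. The count of called probes, 580, ran from 158 to 672 in these fits, at no more than 223 without any 1 of the 8 samples numbered 1 to 4 and at no less than 545 without one numbered 5 or 6. It was 333 with cyclic loess, 377 with a common floor, 258 with no floor and a pseudocount of 0.01, 369 without dim probes, 1739 on the deposited values and 1543 without numbers 5 and 6. Higher calls made up 29.1% in the main setting, 42.6% with cyclic loess and 95.3% on the deposited values. With consecutive numbers averaged 0 probes were called by limma, 3 with a replicate block on these averages and 8 with a random block, and 0 of the 4 genes in each of these fits. The replicate block on the 12 samples called 441 probes and changed no call among the 4 genes. In this balanced design it cannot move a change (AT3G53580 stays at -2.50). Deposited values gave -1.18, 2.63, -0.085 and 1.19 for AT3G53580, AT-HF, AT3G58610 and AT3G23940.

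Within numbers 1 and 2 AT3G23940 turned to -0.036, and within 3 and 4 it was 0.84. AT3G53580 moved to -3.97 in 3 and 4 and -1.25 in 5 and 6, and AT3G58610 to -1.55 and -0.42. Differences between 2 genes in their normalised changes moved, in 3 and 4 and in 5 and 6, to -6.19 and -2.41 for AT3G53580 minus AT-HF, -2.42 and -0.83 for AT3G53580 minus AT3G58610, -4.81 and -1.58 for AT3G53580 minus AT3G23940, and -2.39 and -0.75 for AT3G58610 minus AT3G23940. AT-HF minus AT3G58610 was 1.58 in 5 and 6, and AT3G53580 minus AT3G58610 was -0.93 with the common floor. No difference changed sign in the alternatives run. Of the 2 further list genes 0 were called in the main setting, beside 16.9% of all probes. AT5G10920 was called on the deposited values, and CBL without WT 5 and without numbers 5 and 6. The cause of these shifts was not tested.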
